A study of Solanum virginianum with 2 samples.

Results

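miR482 and miR2118 form a plant microRNA superfamily, and its members in the pistil of eggplant were described here with the transcripts that the deposited tables predict for them. Members were chosen by name: 11 of the 686 small RNA names in the table of counts carry miR482 or miR2118, and 10 of these 11 have predicted transcripts in the degradome table. A 17 nt name of the miR482 family with 1 read and 1251 predicted pairs, made of a repeat sequence, was left out. The members held 36556 of the 135737 listed reads. They had 529 of the 18764 predicted pairings, on 525 of the 12937 predicted transcripts.

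The tissue was pistil of 'B3-3', a long purple eggplant, whose plants carry flowers with long stamens and short pistils (S-morph) and flowers with short stamens and long pistils (L-morph). The study made 1 small RNA library and 1 degradome library, each from pistils of both morphs mixed, with no replicate and no untreated or mutant group. The sample labels give flower development at 1 to 3 and 3 to 6 days after budding for both, and the extraction protocol adds phase 5, at 13 to 15 days, for the degradome. The organism field reads Solanum virginianum, whereas the series title names Solanum melongena. Intervals given with shares below are exact Clopper-Pearson 95% intervals. They cover counting error only, because there was 1 library of each kind and no replicate. Amplified reads that carry no molecular identifier cannot be counted as independent molecules, so the intervals on shares of reads may be too narrow.

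MicroRNAs of this superfamily are known to pair with the sequence that codes for the P-loop, the nucleotide-binding motif of NBS-LRR proteins. NBS-LRR proteins (nucleotide-binding site and leucine-rich repeat) are intracellular receptors that recognise pathogens and trigger defence. In tomato and other plants, cleavage guided by a 22 nt microRNA recruits an RNA-dependent RNA polymerase, and the transcript is turned into phased secondary small RNAs that act on further resistance genes. A degradome, or parallel analysis of RNA ends, sequences the 5′ ends of uncapped RNA, so that a cleaved transcript gives reads that begin opposite the middle of the microRNA.

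The 7 members of 22 nt are shown first because they held nearly all of the family's reads and 18 of its 19 predicted resistance transcripts. Each runs 5′ to 3′, and the capitals mark the seed, bases 2 to 8. The prefix of a name gives the plant of the closest known microRNA (sly tomato, stu potato, hbr rubber tree, mdm apple, aqc columbine, osa rice), and an ending such as 1ss9AG gives the position and bases of a substitution relative to it, as deposited.
sly-miR482b_1ss9AG: uCUUGCCUgcaccgcccaugcc
sly-miR482a: uUUCCAAUuccacccauuccua
stu-miR482c: uUUCCUAUuccacccaugccaa
sly-miR482c_1ss6CT: uCUUGUCAauaccgcccauucc
hbr-MIR482-p3_1ss5GT: uCUUUCCUacuccacccauucc
mdm-miR482a-3p_1ss21TA: uUCCCAAGcccgcccauuccaa
stu-MIR482b-p3_1ss5AG: uCUUGCCGauuccccccauucc

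The other 4 members were shown because their length or sequence sets them apart from the list above. Their 2 shortest sequences supplied most of the family's predicted pairs.
stu-MIR482a-p5: gGAAUUGGuggauuggaaagc
stu-MIR482b-p5_1ss15TC: aGUGGGUGgcauggcaagauauc
aqc-MIR482a-p3_1ss4TC: uUCCCUUCccuuuccuuuu
osa-MIR2118e-p3_1ss13TA: gAAAAGAGagucaaagag

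The first question was how much of the family the pistil library held, and in which forms. The 11 names took 26.9% of the listed reads (26.7 to 27.2%). A single sequence, sly-miR482b_1ss9AG, had 32546 reads, ranked 1 among all 686 names and made up 89.0% of the members' reads (88.7 to 89.3%). It was 16.6 times as abundant as sly-miR482a, with 1961 reads (rank 14), and 17.5 times as abundant as stu-miR482c, with 1862 reads (rank 16).

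The remaining names were scarce. sly-miR482c_1ss6CT had 96 reads (rank 73), and stu-MIR482a-p5 had 71 reads (rank 79). The other 6 names had between 1 and 7 reads each and 20 reads together: 7 for stu-MIR482b-p5_1ss15TC, 4 for hbr-MIR482-p3_1ss5GT, 3 each for aqc-MIR482a-p3_1ss4TC and osa-MIR2118e-p3_1ss13TA, 2 for mdm-miR482a-3p_1ss21TA and 1 for stu-MIR482b-p3_1ss5AG. The intervals of these 6 counts overlapped, so their order is not resolved.

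**Figure D1:**
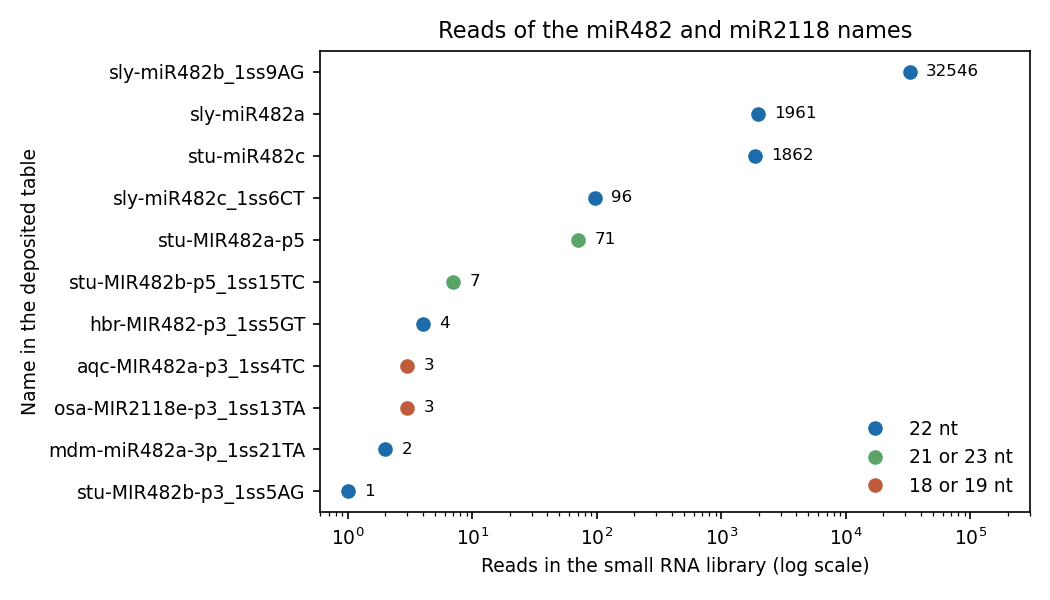
Reads of each miR482 or miR2118 name in the small RNA library, on a log axis, with 1 point per name and colours for length. The most abundant name has 32546 reads, the next 2 have 1961 and 1862, and 6 names have 7 reads or fewer.

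The length that is known to trigger secondary small RNAs carried almost the whole family. The 7 names of 22 nt held 36472 reads, or 99.8% of the members' reads (99.7 to 99.8%), most of them from sly-miR482b_1ss9AG. Sequences of 22 nt held 41.6% of all listed reads. The 7 names made up 64.6% of the 56497 reads of all 74 listed names of 22 nt. A first base U, the base that ARGONAUTE1 is known to prefer, stood in 8 member names with 99.8% of the members' reads, against 79.0% of all listed reads. Names of the 5p arm were rare, since these 2 names had 78 reads, 0.213% of the members' reads (0.169 to 0.266%). The names sly-miR482b_1ss9AG, sly-miR482a, stu-miR482c and sly-miR482c_1ss6CT give no arm.

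The 5p name stu-MIR482a-p5 paired at 15 of 20 overlapping bases with sly-miR482a in an ungapped alignment, counting Watson-Crick pairs only. It also paired at 15 of 21 bases with hbr-MIR482-p3_1ss5GT and at 14 of 20 with stu-miR482c. The other 5p name, stu-MIR482b-p5_1ss15TC, paired at 12 of 19 bases with stu-MIR482b-p3_1ss5AG and at 13 of 18 with sly-miR482a. Names give the closest known microRNA and not the eggplant locus, so an arm cannot be assigned to its partner from these tables.

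The label miR2118 rests on little in this library. Its only name, osa-MIR2118e-p3_1ss13TA, was 18 nt long with 3 reads, and 16 of its 18 bases were A or G. It matched the closest 22 nt member at 7 of 18 bases. aqc-MIR482a-p3_1ss4TC, 19 nt long with 3 reads, consisted of C and U at all 19 bases. Neither holds the motif CCCAU, searched on the strand as listed, which is in all 7 members of 22 nt and in 12 of the 686 listed sequences. The results below therefore give the members of 21 nt or more and these 2 short names apart.

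Among themselves the 7 members of 22 nt shared a core but no seed. All 7 seeds were different, and the 21 pairs of members were identical at 65.0 to 90.0% of the overlapping bases. sly-miR482a, stu-miR482c and mdm-miR482a-3p_1ss21TA begin 2 bases later than the other 4 members, so that their seeds cover other positions of the shared core. In the numbering of sly-miR482b_1ss9AG, 20 positions were held by all 7 sequences, and 12 of these 20 were the same in all 7. Variation was spread unevenly along the rest, with 3 different bases at positions 5, 8, 10, 11 and 14 and 2 different bases at positions 6, 9 and 20. At each position with 3 different bases, 1 of them stood only in mdm-miR482a-3p_1ss21TA or only in stu-MIR482b-p3_1ss5AG, which had 2 and 1 reads. These positions still varied among the other members.

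**Figure D2:**
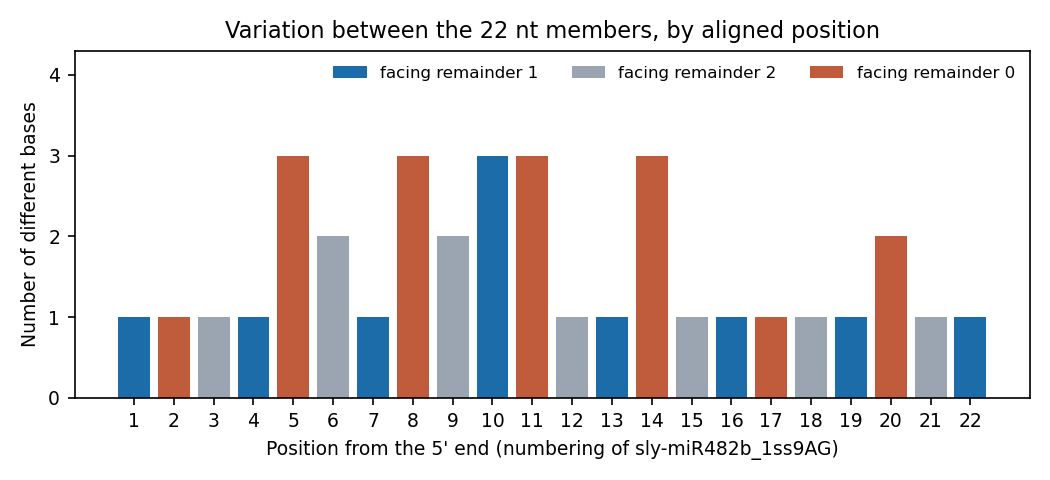
Number of different bases among the 7 members of 22 nt at each position, counted from the 5′ end of the most abundant member; positions 1 and 2 are held by 4 members. Colours give the remainder, on division by 3, of the transcript nucleotide that the position faces at the predicted resistance gene sites; positions 5, 8, 11, 14 and 20, which face remainder 0, hold 2 or 3 different bases, and position 17 holds 1.

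Listed sequences outside the name rule came close to the members. PC-5p-4034_175, a 23 nt name without a known relative, had 880 reads and holds all 22 bases of sly-miR482b_1ss9AG followed by 1 U. Counted together these 2 sequences had 33426 reads, 24.6% of the listed reads. sly-MIR5301-p3, of 22 nt and with 2398 reads, was identical to hbr-MIR482-p3_1ss5GT at 20 of 22 bases, and 6 transcripts were predicted for both, which is 54.5% of the 11 transcripts of hbr-MIR482-p3_1ss5GT and 46.2% of the 13 of sly-MIR5301-p3.

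The second question was which transcripts the members were predicted to pair with. The 2 short names supplied 461 of the 529 pairs, or 87.1%, with 403 from aqc-MIR482a-p3_1ss4TC alone. The members of 21 nt or more had 68 pairs on 64 transcripts: 18 for sly-miR482a, 17 for stu-MIR482a-p5, 11 for hbr-MIR482-p3_1ss5GT, 7 for stu-MIR482b-p3_1ss5AG, 5 each for stu-miR482c and sly-miR482c_1ss6CT, 4 for sly-miR482b_1ss9AG and 1 for mdm-miR482a-3p_1ss21TA. stu-MIR482b-p5_1ss15TC had 0. The most abundant member thus had fewer predicted transcripts than sly-miR482a, which had a small part of its reads.

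Most pairs of the members had a high value of the authors' alignment score, which runs from 0 to 4 with lower values for fewer mismatches. The median score was 4 over the members' pairs, against 3.5 over all pairs, and it was also 4 for other small RNAs of 22 nt and for those of 18 or 19 nt. Scores of at most 2.5 were given to 7.56% of the members' pairs, against 18.2% of all pairs, 18.7% for other small RNAs of 22 nt and 11.2% for those of 18 or 19 nt. Of the 68 pairs of members of 21 nt or more, 46 had a score of 4, the highest allowed, and the best score was 2.

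Disease resistance genes were the leading annotation of the 22 nt members. Words for resistance genes in the deposited symbols took in 14 of the members' 525 transcripts (2.67%, 1.47 to 4.43%), against 96 of all 12937 (0.742%). Of these 14, 13 belonged to the 64 transcripts of the members of 21 nt or more (20.3%, 11.3 to 32.2%), whereas 51 of the 520 transcripts of all other small RNAs of 22 nt carried such a word (9.81%, 7.39 to 12.7%). With gene ontology terms for defence added to the words, a choice made after the values were seen, the 22 nt members had 18 resistance transcripts of 47 (38.3%, 24.5 to 53.6%), against 55 of 520 for other small RNAs of 22 nt (10.6%, 8.07 to 13.5%) and 117 of 12937 for all (0.904%). The members were proposed with such results known, so these shares are given as a description and no test was run.

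The 18 transcripts cover both large classes of NBS-LRR genes. Those with the symbol N, named after the tobacco gene for resistance to tobacco mosaic virus, were the most frequent, with 5 transcripts. They had scores of 2 with hbr-MIR482-p3_1ss5GT (Sme2.5_03779.1_g00004.1), 2.5 with sly-miR482a (Sme2.5_04103.1_g00001.1) and 4 with stu-MIR482b-p3_1ss5AG (Sme2.5_00345.1_g00028.1, Sme2.5_04714.1_g00003.1 and Sme2.5_20551.1_g00001.1). The transcript at score 2.5 has the deposited annotation of a MOB1 protein beside its symbol N, so symbol and annotation disagree there.

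Symbols of the coiled-coil class followed. RGA2, RGA3 and RGA4, named after resistance gene analogues, had 4 transcripts with scores of 3 to 4 for stu-MIR482b-p3_1ss5AG and hbr-MIR482-p3_1ss5GT. RPP13L2 paired with sly-miR482a at score 4 and RPP13L3 with sly-miR482c_1ss6CT at 2.5; both are named after an Arabidopsis gene for resistance to downy mildew. The abundant sly-miR482b_1ss9AG had RPM1, named after an Arabidopsis receptor for bacterial effectors, at score 3.5 and RPPL1 at score 3, and its other 2 transcripts carried the retroelement symbol TY3B-I at score 3.5.

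The 5 transcripts added by gene ontology terms were At4g11170 with 3 transcripts, At1g50180 and WRKY19. The last has in Arabidopsis both a WRKY DNA-binding domain and NBS-LRR domains. All 5 had a score of 4 with at least 1 member, and At1g50180 had 3.5 with sly-miR482a. R1A-3, named after potato genes of late blight resistance, was the only resistance transcript of a short name, at score 4 with aqc-MIR482a-p3_1ss4TC.

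By name, the resistance share was uneven. All 7 transcripts of stu-MIR482b-p3_1ss5AG, which had 1 read, were resistance genes, as were 4 of 5 of sly-miR482c_1ss6CT, 5 of 11 of hbr-MIR482-p3_1ss5GT, 2 of 4 of sly-miR482b_1ss9AG, 3 of 18 of sly-miR482a and 1 of 5 of stu-miR482c. The 5p name stu-MIR482a-p5 had 0 of 17, and mdm-miR482a-3p_1ss21TA had 0 of 1. Only 4 transcripts were predicted for 2 members, all of them resistance genes: N (Sme2.5_20551.1_g00001.1) and WRKY19 for sly-miR482c_1ss6CT and stu-MIR482b-p3_1ss5AG, At1g50180 for sly-miR482a and stu-miR482c, and At4g11170 (Sme2.5_04766.1_g00001.1) for hbr-MIR482-p3_1ss5GT and stu-MIR482b-p3_1ss5AG.

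**Figure D3:**
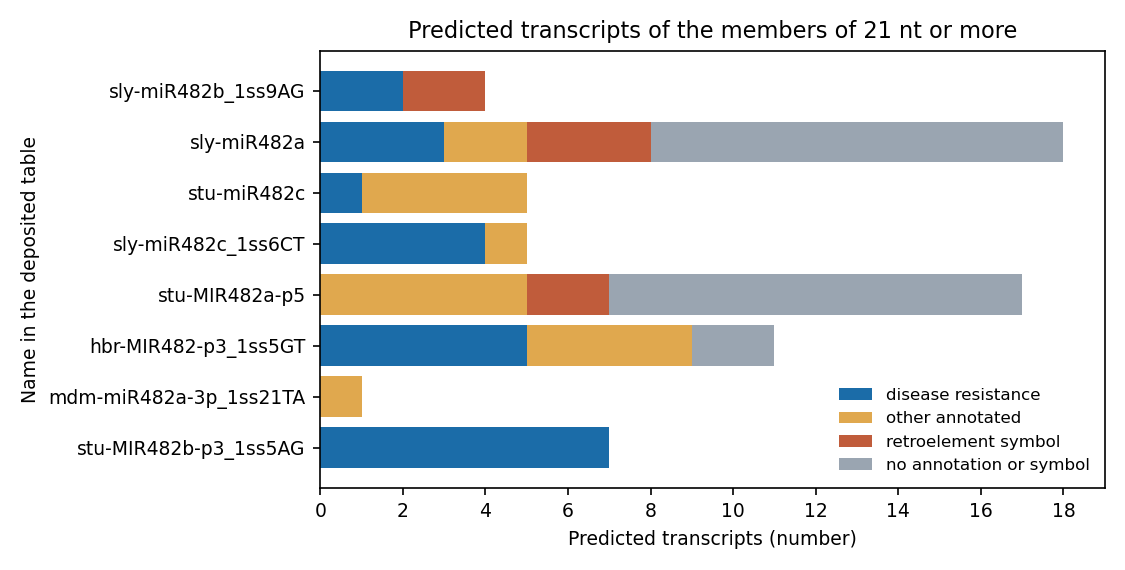
Number of predicted transcripts for each member of 21 nt or more, coloured by kind of transcript: disease resistance (words or gene ontology terms), other annotated, retroelement symbol, and none. All 7 transcripts of the bottom name are resistance genes, against 0 of the 17 of stu-MIR482a-p5.

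The positions of the sites along resistance transcripts and along the other transcripts overlapped. Of 18 resistance transcripts of 22 nt members, 15 had the site before nucleotide 700, with a median start at nucleotide 513 and a range of 46 to 2267. Of the 29 other transcripts of these members, 20 had it before nucleotide 700, with a median start at nucleotide 347 and a range of 45 to 3679. Transcript lengths were not used here. The 3 resistance transcripts with a site after nucleotide 1500 were RPP13L2 at nucleotides 2267 to 2288, RPP13L3 at 1585 to 1606 and RPPL1 at 1756 to 1777. Positions are nucleotides along the deposited transcript, and the P-loop itself was not located because no transcript sequence was used here.

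All 18 resistance sites also lay in the same position modulo 3. The nucleotide facing base 1 of the common numbering, after the 2-base shift of the later-starting members, left a remainder of 1 on division by 3 in 18 of 18 resistance sites and in 12 of the 29 other sites of these members. Among those 29, it did so in 8 of 12 other annotated transcripts, 4 of 12 transcripts with no annotation or symbol, and 0 of 5 with a retroelement symbol. For the other small RNAs of 22 nt, whose registers were not aligned, 64.9% of pairs ended at remainder 1, 19.8% at 0 and 15.3% at 2. The pattern was noticed in the values and not tested. Related genes can share a site by descent, so the 18 cannot be taken as independent.

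**Figure D4:**
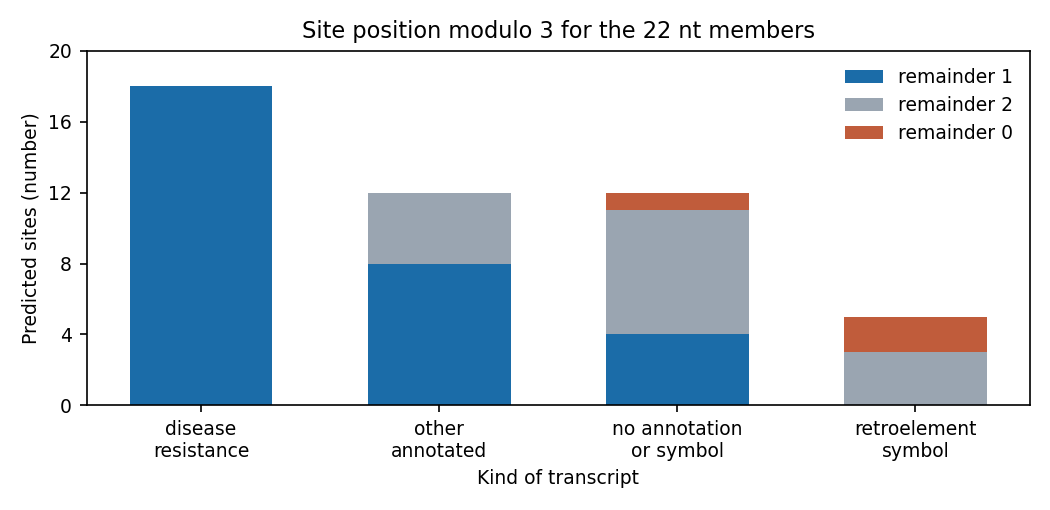
Number of predicted sites of the 22 nt members by kind of transcript, split by the remainder on division by 3 of the nucleotide facing base 1. All 18 resistance sites fall at remainder 1, against 8 of 12, 4 of 12 and 0 of 5 in the other kinds.

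In that register, the members varied most at the positions facing remainder 0. Of 6 shared positions facing remainder 0, 5 varied, with a mean of 2.5 different bases. Of 7 facing remainder 1, 1 varied, and of 7 facing remainder 2, 2 varied, each with a mean of 1.29 different bases. Each member counts equally here, including mdm-miR482a-3p_1ss21TA with 2 reads and stu-MIR482b-p3_1ss5AG with 1 read, which raised the mean for remainder 0. In other plants the variable positions of this family are known to face the wobble bases of P-loop codons; whether nucleotide 1 of these transcripts is the first base of a coding sequence is not stated in the tables or labels.

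The third question was which predicted sites had degradome reads. Reads at the predicted cleavage position were listed for 26 of the members' 529 pairs (4.91%, 3.24 to 7.12%), against 5.38% of all pairs, and for 24 of their 525 transcripts (4.57%, 2.95 to 6.73%), against 5.15% of all transcripts. These shares are near the background. The members split by length: those of 22 nt had 9 of 47 transcripts detected (19.1%, 9.15 to 33.3%), the 21 nt stu-MIR482a-p5 had 0 of 17, and the 2 short names had 15 of 461 (3.25%, 1.83 to 5.31%). Small RNAs outside the family had 15.4% of transcripts detected at 22 nt (12.4 to 18.8%) and 3.85% at 18 or 19 nt (3.32 to 4.43%), and these intervals overlap those of the members of the same length.

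The 24 sites had 79 raw reads in all, and 11 of them had 1 read. Cleavage was placed 9 nt upstream of the alignment's last nucleotide at 18 sites and 10 nt upstream at 6. The authors' category, which in the usual scheme is 0 for a position that alone has the most reads of its transcript and 4 for a position with 1 read, was 0 at 3 sites, 2 at 10 and 4 at 11. The 3 in category 0 were 3 of 24 detected transcripts, against 6.61% of detected transcripts of all small RNAs in category 0 or 1. All 3 were among the 9 detected transcripts of 22 nt members, and other small RNAs of 22 nt had 20 of 80 in category 0 or 1. An authors' p of at most 0.05 was given to the pairs at these 3 sites, 3 of the members' 26 detected pairs, against 12.3% of all detected pairs. Among 22 nt sequences the members had such a p in 3 of 11 detected pairs, and other small RNAs in 25 of 87.

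The 3 sites of category 0 all belonged to 22 nt members, each at score 4. Sme2.5_03824.1_g00004.1, a transcript with no annotation or symbol, had 6 raw and 6 normalized reads at nucleotide 253, opposite hbr-MIR482-p3_1ss5GT, with a deposited p of 0.0116. The far more abundant sly-MIR5301-p3 was predicted to cut at the same nucleotide, so the reads cannot be assigned to either. PP2A13, an F-box protein related to phloem lectins in Arabidopsis, had 5 raw and 5 normalized reads at nucleotide 612, opposite stu-miR482c, with a deposited p of 0.00519.

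The third was a resistance transcript. N (Sme2.5_04714.1_g00003.1) had 3 raw and 1.67 normalized reads at nucleotide 448, opposite stu-MIR482b-p3_1ss5AG, with a deposited p of 0.00778. Normalized reads below raw reads were read as reads shared with other places, which the header does not spell out. Category 0 sites of all small RNAs had 2 to 130 raw reads with a median of 14, and 16 of the 40 had 6 reads or fewer, so all 3 sites of the members were in the lower part of that range.

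Detection on resistance genes came down to very few reads. Of the 14 resistance transcripts found by words, 2 were detected, both with the symbol N (14.3%, 1.78 to 42.8%), against 13.5% of the 96 resistance transcripts of all small RNAs. The second, Sme2.5_20551.1_g00001.1, had 2 raw and 0.667 normalized reads at nucleotide 442. WRKY19 (Sme2.5_00264.1_g00028.1), found by gene ontology terms, also had 2 raw and 0.667 normalized reads, at nucleotide 532. Both sites were in category 2, and for both the deposited p was 0.195 or 0.353 depending on which of sly-miR482c_1ss6CT and stu-MIR482b-p3_1ss5AG was paired.

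Together these 3 resistance sites had 7 raw reads but 3.00 normalized reads. That sum equals the raw reads of Sme2.5_04714.1_g00003.1 alone, and whether the same reads were counted on all 3 transcripts is not given in the table. RPP13L2 had no listed read at its sly-miR482a site. Close by on the same transcript, at nucleotide 2295, a site of sly-miR6024_1ss20AC, a microRNA outside the family, had 5 raw and 0.714 normalized reads in category 2.

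The site with the most reads was in a photosynthesis gene. PSAF, photosystem I subunit III, had 14 raw and 7 normalized reads at nucleotide 520, opposite hbr-MIR482-p3_1ss5GT, in category 2 with a deposited p of 0.479. The last 3 of the 9 sites of the 22 nt members had 1 read each, in category 4.

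**Figure D5:**
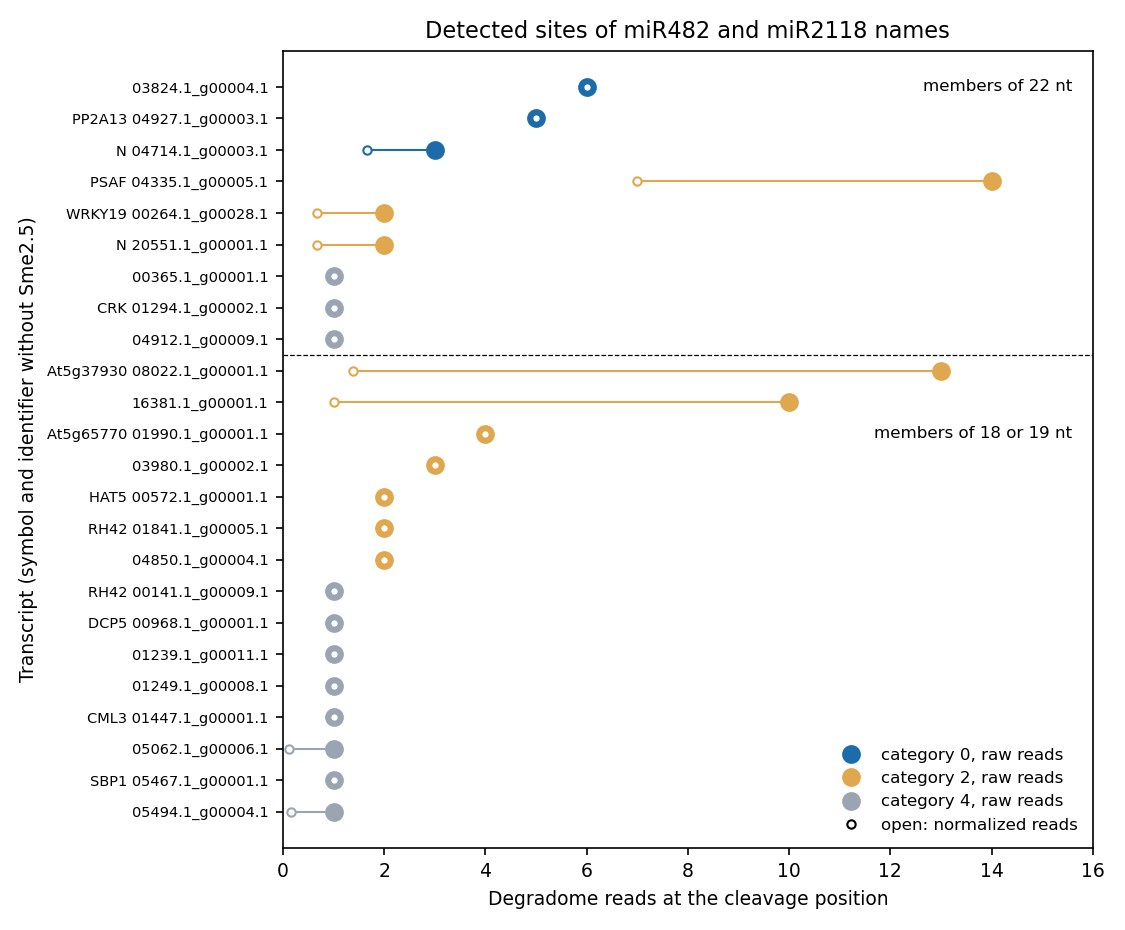
Degradome reads at the 24 detected sites of the members, raw (large points) and normalized (small open points), coloured by the authors' category; 22 nt members stand above the dashed line and the 2 short names below it. The 3 category 0 sites have 3 to 6 raw reads, and all are sites of 22 nt members.

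The scarce 22 nt members had more of the detected pairs than the abundant ones. The 3 members above 1000 reads held 99.5% of the members' reads and had 27 pairs, of which 2 were detected (7.41%, 0.910 to 24.3%). The 4 members under 100 reads had 103 reads in all and 24 pairs, of which 9 were detected (37.5%, 18.8 to 59.4%). The 2 intervals overlap. Other small RNAs of 22 nt had 15.8% of pairs detected, and all small RNAs 5.38%. The dominant sly-miR482b_1ss9AG had 0 of 4. Several of the detected pairs shared a site or a transcript, and hbr-MIR482-p3_1ss5GT shared 2 of its 3 sites with the abundant sly-MIR5301-p3.

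The 2 short names had 15 detected sites and none in category 0 or 1. Their 7 sites in category 2 included At5g37930 with 13 raw but 1.38 normalized reads and At5g65770 with 4 raw and 4 normalized reads, both opposite aqc-MIR482a-p3_1ss4TC. HAT5, a homeodomain-leucine zipper transcription factor in Arabidopsis, had 2 reads opposite osa-MIR2118e-p3_1ss13TA, and RH42, a DEAD-box RNA helicase, had 2 reads opposite aqc-MIR482a-p3_1ss4TC. The other 3, without annotation or symbol, had 10, 3 and 2 raw reads. Deposited p-values at all 15 sites lay between 0.204 and 1.

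The best alignment scores of the family also belonged to the short names. All 12 pairs with a score of at most 1.5 came from them, and 0 of the 12 were detected. The short names had 3.25% of all their pairs detected, so 0 of 12 is near their background, while 11.8% of the pairs of all small RNAs at such scores were detected. Those with a symbol were AtMg00860 at score 0, YLR154W-F and ttk at score 1, and DMT1, annotated as a DNA cytosine methyltransferase, and TY3B-G at score 1.5. Of the 403 pairs of aqc-MIR482a-p3_1ss4TC, 111 lay within nucleotides 22 to 40 of their transcripts, and 89 of these transcripts had no annotation or symbol while 21 had a retroelement symbol.

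The lists of small RNA pathway, transcription factor and receptor kinase genes held few of the members' transcripts and few of all predicted transcripts. Genes of the small RNA pathway, such as Dicer and Argonaute, numbered 0 among the 525, against 25 among all predicted transcripts (0.193%), so a count of 0 is near the background. Transcription factor words took in 3, or 0.571% (HAT5, WRKY19 and ATHB-40), 2 of them detected. Among all small RNAs they took in 150, or 1.16%, with 35 detected. Receptor kinase words took in ttk alone (0.190%), against 8 among all small RNAs (0.0618%). The annotation of ttk, serine/threonine-protein kinase TTK/MPS1, matched only the general kinase words of that list and names no receptor. Retroelement symbols, a list added after the values were seen, stood on 7 transcripts of members of 21 nt or more (10.9%) and 82 of the short names (17.8%), against 20.3% of all. None of these 89 was detected, and 6 of 2629 were among all small RNAs, so a count of 0 is near the background. No annotation or symbol was given for 22 transcripts of members of 21 nt or more (34.4%) and 285 of the short names (61.8%), against 50.2% of all.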

How the data were processed

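Per the labels' protocols, an Illumina TruSeq kit was used for the small RNA library, and the degradome was constructed after German and colleagues. The small RNA table holds, as deposited, a read count per distinct sequence. For each pair the authors' degradome table gives an alignment score, and for detected pairs the raw read count at the cleavage position, a normalized read signal, a category (a score from 0 to 4) and a p-value. All were taken as deposited, and the p-value was treated as unadjusted. The programs and the genome build behind them are not given in the sources used here.

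Members and lists were chosen with earlier results of these data known. The rule named all members, their detected transcripts in categories 0 to 3, their resistance transcripts and the pairs with scores of at most 1.5. Sequences were compared without gaps, over shifts of up to 4 bases. Resistance words were matched to symbols such as N, RPM1, RPP, RGA and R1A. The list fixed beforehand, matched anywhere in symbol or annotation, took in 16 of the members' transcripts and 129 of all. It was narrowed to whole symbols of resistance genes and fewer annotation words, which gave the 14 and 96 reported. A list of translation genes is not reported here. A transcript was counted as detected once, whatever the number of its pairs. Intervals printed with shares are Clopper-Pearson 95% intervals, and no other test was run. Sequence comparison, site remainders, name matching and intervals were tested on simulated data. The work used Matplotlib 3.10.9, SciPy 1.17.1, NumPy 2.4.6 and pandas 2.3.3 under Python 3.11.15.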

Additional observations from a re-analysis of the deposited data

How the results depend on the processing

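Of 41 alternative values, 24 stayed close to the reported one and 17 moved, a share of reads being close within its counting interval, a count within 1.5 times and a median score only where equal. The share of listed reads was 34.4% without names known to match ribosomal or transfer RNA, 27.9% without sequences named PC and 27.6% with PC-5p-4034_175. The 24 detected transcripts became 51 with the repeat name, 13 without category 4, 9 for members of 21 nt or more, 5 for names of 10 or more reads, 3 at an authors' p of at most 0.05 and 3 at a score of at most 3. The 3 in category 0 or 1 became 1 for names of 10 or more reads and 0 at a score of at most 3. The 2 detected resistance transcripts became 1 for names of 10 or more reads and 0 at a score of at most 3. They also became 0 when every site with normalized reads below its raw reads was left out whole. The 14 predicted resistance transcripts became 5 at a score of at most 3 and 0 from annotations alone, since the words stand in the symbols. The median score of 4 became 3.5 with the repeat name. Alternatives with PC-5p-4034_175, with members of 21 nt or more and with gene ontology terms were chosen after seeing the data. The alternative with a looser match of the words was also outside the planned ones, though it used the fixed list as written. With 1 library of each kind, the spread between plants was not measured, and depth limits every site of 1 to 3 reads.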

Other observations

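Apart from PC-5p-4034_175 and sly-MIR5301-p3, no listed sequence outside the family names matched a member of 21 nt or more at over 16 bases. sly-miR5300_1ss2CT, with 6421 reads, was identical to sly-miR482a at 16 of 21 overlapping bases. PC-3p-44250_21, of 21 nt and with 42 reads, also held CCCAU. sly-MIR5301-p3 had 6 resistance transcripts among its 13, by words or gene ontology terms, and 2 of the 13 were detected.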
